A study of Mus musculus with 9 samples.

Results

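Granule neurons of the cerebellum arise from precursors in its outer layer, which divide while Sonic hedgehog (Shh) signalling is active and then leave the cell cycle, extend parallel fibres, migrate inward and form synapses. The genes described here follow that course. Newborn granule neurons make microtubule, growth cone and RNA-binding proteins, and older ones add potassium channels, vesicular glutamate transporters and synaptic proteins. A list of 36 such genes was chosen by their known roles, with earlier results of these data known. Of these, 34 were measured among 19147 genes tested. The other gene lists below were chosen in the same way. Shares of listed genes set beside shares of all genes are therefore descriptions, not tests. Tubb3, which encodes a neuronal tubulin, and Etv1, which encodes an Ets-family transcription factor of maturing granule neurons, had no probe set under their own symbol. Their expression is therefore not analysed here.

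Expression arrays were run on RNA of 9 C57BL/6 mice at postnatal day 5, in 3 groups of 3 with 1 array each: wild type, SmoA2 mutant and Smo/Smo mutant. The labels give the tissue as brain, and the design text gives it as cerebellum. Both mutant groups carry a transgene for an activated form of Smoothened, which relays Shh signalling across the cell membrane, under a fragment of the ND2 (Neurod2) promoter that is active in granule neuron precursors. The design text names the lines SmoA1 and SmoA2, and Smo/Smo is a name in use for mice homozygous for the SmoA1 transgene, although the labels themselves give only Smo/Smo. The sampled tissue holds all cell types, not granule neurons alone, so that fewer cells of a type and less RNA per cell cannot be told apart.

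The values are probe set intensities, given below as log2 levels, and differences are log2 fold changes ± standard error from a model fitted to all 9 arrays. A gene is said to rise, fall or be called where its p-value, adjusted over all genes tested, lay under 0.05. Medians of the arrays lay between 91 and 95.1 in intensity, and the number of arrays limits the precision. On the 1 probe set used for each gene, the lowest level of any member on any array was 7.58. This was above the 5.57 reached by probe sets of Y-linked genes in female mice, an indication of background. Sex was taken from the level of Xist, a transcript of female cells, and not from the labels. By it 1 wild type, 2 SmoA2 and 2 Smo/Smo mice were male, so sex was not balanced between wild type and the mutants. The members were among the brighter genes, with group means up to 13.7 in wild type. Their standard deviation within a group had a median of 0.047 for wild type arrays, 0.10 for SmoA2 arrays and 0.063 for Smo/Smo arrays, against 0.084, 0.11 and 0.083 over all genes. A pair of arrays was singled out after seeing the data, each by a different measure and without a test. Wild type replicate 3 had a summed intensity of 9 choroid plexus markers of 494.5, against 4539 and 4930 in the other wild type arrays. The same sum was higher on all mutant arrays, at 6737 to 7928 in SmoA2 and 8432 to 9703 in Smo/Smo. Limma called 0 of the 9 markers in either line against wild type, although 8 in each had an unadjusted p under 0.05. Over all genes 14.8% had such a p in SmoA2 and 8.77% in Smo/Smo. The part of this difference in tissue content in the results below was not tested. SmoA2 replicate 3 received the lowest array weight in limma, 0.39, while wild type replicates 2 and 3 both received 0.87. Values without wild type replicate 3 and SmoA2 replicate 3 are given where they matter. The markers Chat and Hoxb5 of brainstem lay within the background range in all 3 groups. Nothing in the labels pairs the mice across groups, and the Smo/Smo mice carry animal codes of a different series, so source and genotype cannot be told apart there. The mutant groups share their wild type controls, and their differences from wild type are set side by side below without a measure of likeness.

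Most of the granule neuron genes were not called in any comparison. Against wild type, Kcnj6 fell in SmoA2 and no member was called in Smo/Smo. Between the mutant lines, Kcnj6, Tiam1 and Car4 were lower in SmoA2 than in Smo/Smo. Kcnj6 encodes a G protein-gated potassium channel subunit, Tiam1 an activator of the GTPase Rac, and Car4 a membrane-bound carbonic anhydrase. In the test across the 3 groups (moderated F), these same 3 genes were called among the 34 members, which is 8.82%, against 2.89% of all genes.

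**Figure D1:**
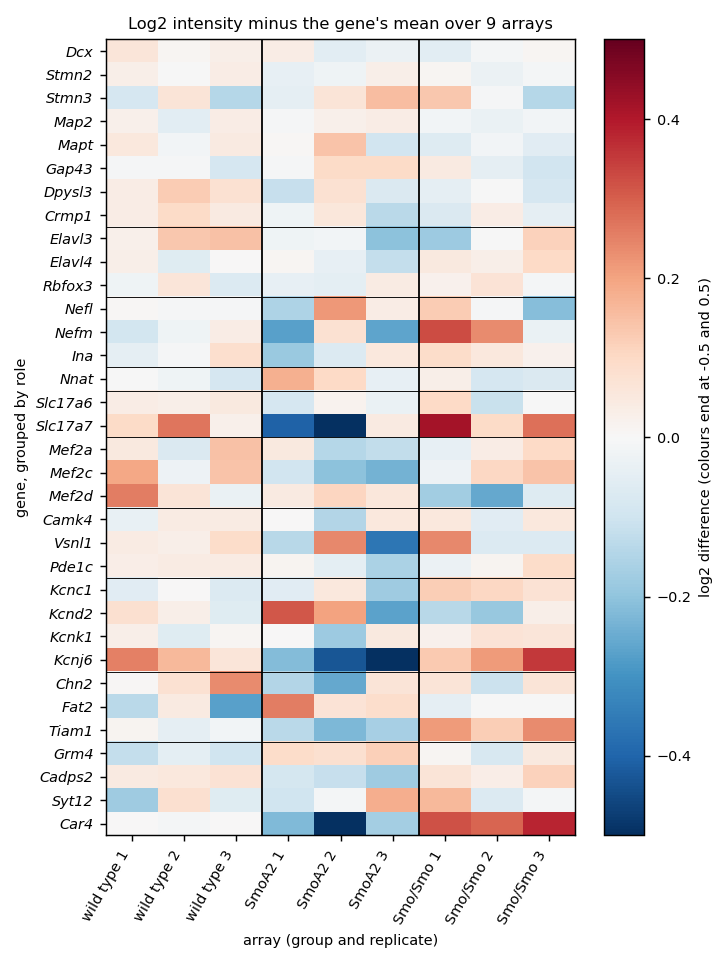
Log2 intensity of the 34 measured granule neuron genes (rows, grouped by role) on the 9 arrays (columns), as the difference from the mean of each gene over the 9 arrays, with colours ending at -0.5 and 0.5. Kcnj6 and Car4 are blue on all 3 SmoA2 arrays, and Car4 and Tiam1 are red on all 3 Smo/Smo arrays, while Dcx, Stmn2 and Map2 are pale on every array.

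The 250 bases before a start of each called gene are shown because these 3 members differed between the mutant lines in the same direction. They are from RefSeq (GRCm38.p6), in lower case on the strand of the gene, with matches in capitals to CAGATG, a form of the E-box bound by factors of the Neurod and Atoh1 class, read on both strands. Of the 36 listed genes, 27 had a promoter in the table, in 44 windows of 250 bases before to 50 after a start.

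Kcnj6, chr16:94997697-94997946, minus strand: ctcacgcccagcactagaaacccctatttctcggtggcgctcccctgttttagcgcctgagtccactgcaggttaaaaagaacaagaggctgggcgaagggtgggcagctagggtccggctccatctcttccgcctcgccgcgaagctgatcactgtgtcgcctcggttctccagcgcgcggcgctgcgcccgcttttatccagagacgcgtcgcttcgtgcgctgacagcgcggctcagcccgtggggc
Tiam1, chr16:89818353-89818602, minus strand: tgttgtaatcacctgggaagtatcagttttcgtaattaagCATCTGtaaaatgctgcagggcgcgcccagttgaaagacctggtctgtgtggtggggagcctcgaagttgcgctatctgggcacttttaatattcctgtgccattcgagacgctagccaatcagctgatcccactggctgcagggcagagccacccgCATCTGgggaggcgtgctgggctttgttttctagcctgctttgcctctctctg
Car4, chr11:84957504-84957753, plus strand: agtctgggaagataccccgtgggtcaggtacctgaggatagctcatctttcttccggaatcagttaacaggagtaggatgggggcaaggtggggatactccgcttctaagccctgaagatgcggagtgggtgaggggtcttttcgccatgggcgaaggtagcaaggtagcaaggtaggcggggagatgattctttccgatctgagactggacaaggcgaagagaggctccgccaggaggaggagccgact

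In Tiam1 the motif began at positions -210 and -53 from the start, on the opposite strand (CATCTG). Tiam1 and Kcnj6 each have another start in the table. The window of Tiam1 printed is the one with matches, chosen for them, and its other window held none. No window of Kcnj6 or Car4 held a match. CAGATG was found in 11 of the 44 member windows, or 25%, against 17.2% of 32851 windows of all genes. The listed genes with it were Chn2, Elavl4, Etv1, Mef2c, Slc17a6, Stmn3, Tiam1 and Vsnl1, of which Etv1 was not measured on the arrays. Elavl4 and Chn2 each gave more than 1 of these windows, and windows of a gene can hold the same site. The windows are therefore not separate units. GACCACCCA, the site of Gli factors, was in 0 member windows and 0.253% of all windows. CTAAAAATA, a form of the Mef2 site, was in 1 member window, that of Mef2a, which is 2.27% of them, and in 0.517% of all windows. Both strands were searched for each motif, no motif holds another, and these are matches of letters only.

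How the SmoA2 transgene affects transcripts, at an age when granule neuron precursors divide, migrate and differentiate, was addressed by setting SmoA2 against wild type. The members showed a small median difference of -0.044, with 25 of 34 (73.5%) below 0, against a median of 0.0059 and 47.9% below 0 among all genes tested. A single member was called, Kcnj6, which is 2.94% of the members, against 2.69% of all genes (0.961% higher and 1.73% lower). At an unadjusted p under 0.05 there were 8 members, or 23.5%, against 14.8% of all genes. In 10 members, or 29.4%, the SmoA2 arrays did not overlap with wild type, against 19.1% of all genes. Fat2 and Grm4 lay above wild type among these, and Elavl3, Slc17a6, Mef2c, Pde1c, Kcnj6, Tiam1, Cadps2 and Car4 below. The 95% interval of the difference had a median half-width of 0.16 and lay within -0.5 and 0.5 in 31 members and within a 1.2-fold change either way in 16.

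The other transgenic line was then set against the same wild type arrays. The median over the members was -0.0032, with 18 of 34 (52.9%) below 0, against 0.0055 and 47.8% over all genes. Limma called 0 of 34 members, against 0.371% of all genes (0.214% higher and 0.157% lower), and 3 members (8.82%) had an unadjusted p under 0.05, against 8.77% of all genes. The 3 were Mef2d, Tiam1 and Car4. Groups did not overlap in 7 members (20.6%), against 15.9% of all genes. The largest difference was in Car4, at 0.33 ± 0.10, and the intervals of 32 members lay within -0.5 and 0.5.

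The direct comparison of SmoA2 with Smo/Smo asked where the mutant lines differ. Of the members, 3 were called, all lower in SmoA2, which is 8.82%, against 2.56% of all genes (1.02% higher and 1.54% lower). The median was -0.043, against -0.0030 over all genes. Of the members, 9 (26.5%) had an unadjusted p under 0.05, against 14.3% of all genes, and groups did not overlap in 12 (35.3%), against 18.2%. Intervals lay within -0.5 and 0.5 in 30 members.

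**Figure D2:**
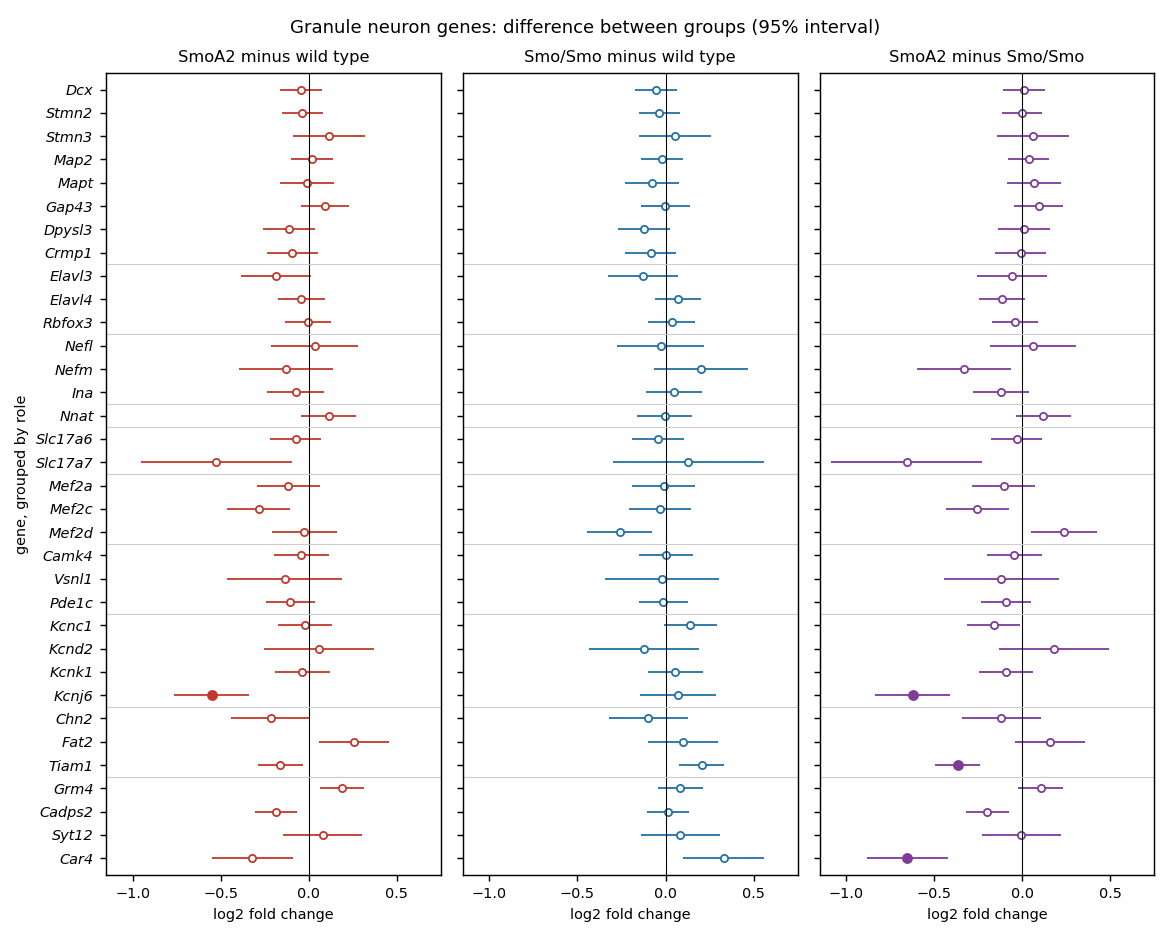
Log2 fold change of each of the 34 genes (rows, grouped by role) in the 3 comparisons (panels), with 95% intervals from the model; filled points have an adjusted p under 0.05. Kcnj6 is filled in the first and last panels and Tiam1 and Car4 in the last, and none is filled for Smo/Smo minus wild type.

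Microtubule and growth cone genes, the earliest of the postmitotic set, were nearly level across the groups on the probe sets used. Of 9 listed, 8 were measured and 0 were called in any comparison, with median differences of -0.024 in SmoA2 and -0.044 in Smo/Smo against wild type. Dcx encodes doublecortin, a microtubule-binding protein of migrating neurons. Its levels were 12.79, 12.74 and 12.76 in wild type, 12.77, 12.68 and 12.70 in SmoA2 and 12.68, 12.72 and 12.74 in Smo/Smo. The groups overlapped, and the interval for SmoA2 against wild type ran from -0.17 to 0.074. Its other probe sets gave -0.0020 and -0.15 in SmoA2, and 0.014 and -0.25 in Smo/Smo. The last, on the dimmest of them, had an unadjusted p of 0.0255 (adjusted p = 0.46 with every probe set fitted). Dpysl3, a collapsin response mediator of growing axons, had levels of 12.22, 12.31 and 12.26 in wild type. They were 12.07, 12.26 and 12.11 in SmoA2 and 12.14, 12.18 and 12.10 in Smo/Smo. All Smo/Smo arrays were below wild type and SmoA2 replicate 2 was not. The difference was -0.11 ± 0.07 in SmoA2 (adjusted p = 0.482) and -0.12 ± 0.07 in Smo/Smo (0.661). Stmn2 and Stmn3 encode stathmins, which regulate microtubule growth, and differed from wild type by -0.036 and 0.11 in SmoA2. Map2 and Mapt, which encode microtubule-associated proteins of dendrites and axons, differed by 0.017 and -0.012. Gap43, a growth cone protein, stood at 0.092, and Crmp1, a relative of Dpysl3, at -0.093.

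Neuronal RNA-binding proteins had no call among 3 genes. Rbfox3, the NeuN antigen of postmitotic neurons, had levels of 10.64, 10.72 and 10.59 in wild type, 10.62, 10.61 and 10.70 in SmoA2 and 10.68, 10.73 and 10.65 in Smo/Smo. The groups overlapped throughout, and the interval for SmoA2 against wild type was -0.14 to 0.13. Elavl3 encodes an mRNA-binding protein of early neurons. Its levels were 10.60, 10.71 and 10.72 in wild type, 10.55, 10.56 and 10.37 in SmoA2 and 10.39, 10.57 and 10.69 in Smo/Smo. SmoA2 was below wild type on every array, by -0.18 ± 0.09 (adjusted p = 0.38), and Smo/Smo overlapped with both. Elavl4, of the same family, differed by -0.043 in SmoA2 and 0.071 in Smo/Smo. Nnat, an imprinted gene for a membrane proteolipid of immature neurons, differed by 0.11 and -0.0056.

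Intermediate filament genes also had no call among 3. Nefm encodes the middle neurofilament subunit. It had levels of 9.42, 9.49 and 9.55 in wild type, 9.24, 9.59 and 9.25 in SmoA2 and 9.84, 9.75 and 9.48 in Smo/Smo. The mutant groups overlapped because SmoA2 replicate 2 was above Smo/Smo replicate 3. SmoA2 minus Smo/Smo was -0.33 ± 0.12 (unadjusted p = 0.02, adjusted p = 0.229), and the other Nefm probe set gave -0.35. Nefl, the light subunit, and Ina, alpha-internexin, differed from wild type by 0.033 and -0.075 in SmoA2.

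The vesicular glutamate transporters, which fill synaptic vesicles, had no call. Slc17a6 (VGLUT2), the form of young granule neurons, had levels of 11.47, 11.46 and 11.48 in wild type, 11.35, 11.45 and 11.40 in SmoA2 and 11.53, 11.32 and 11.43 in Smo/Smo. SmoA2 lay just below wild type on every array, with a difference of -0.075 ± 0.06 (adjusted p = 0.645). Slc17a7 (VGLUT1), the form of mature granule neurons, had levels of 9.0, 9.17 and 8.93 in wild type, 8.50, 8.08 and 8.95 in SmoA2 and 9.32, 9.0 and 9.18 in Smo/Smo. SmoA2 replicates 1 and 2 were the lowest of the 9 arrays, and SmoA2 replicate 3 lay within wild type. The difference was -0.53 ± 0.19 from wild type (adjusted p = 0.229) and -0.66 ± 0.19 from Smo/Smo (0.131). Its standard deviation in SmoA2, 0.43, was the largest of any member. Without SmoA2 replicate 3 the differences were -0.74 (adjusted p = 0.0483) and -0.87 (0.0299). Without that array and wild type replicate 3 they were -0.80 (0.0882) and -0.87 (0.0484).

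Transcription factors of neuronal maturation showed no call among 3 measured. Mef2c, an activity-regulated factor, had levels of 9.96, 9.74 and 9.91 in wild type, 9.67, 9.56 and 9.53 in SmoA2 and 9.74, 9.87 and 9.91 in Smo/Smo. All SmoA2 arrays were below all others. The difference from wild type was -0.28 ± 0.08 (unadjusted p = 0.00539, adjusted p = 0.112), and its other probe sets gave -0.31 and -0.13. Mef2d, of the same family, had levels of 8.09, 7.90 and 7.80 in wild type, 7.88, 7.94 and 7.89 in SmoA2 and 7.66, 7.58 and 7.77 in Smo/Smo. Here Smo/Smo was lowest on every array, by -0.26 ± 0.08 from wild type (adjusted p = 0.369). Mef2a differed by -0.12 in SmoA2 and -0.011 in Smo/Smo.

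Of calcium and cyclic nucleotide signalling genes, 0 of 3 were called. Camk4, a calmodulin-dependent kinase of granule neuron nuclei, differed from wild type by -0.042 in SmoA2 and 0.0027 in Smo/Smo. Vsnl1, a neuronal calcium sensor, varied from 9.24 to 9.84 in SmoA2 and differed by -0.14 ± 0.14. Pde1c, a calmodulin-dependent phosphodiesterase, differed by -0.11 on the probe set used. Its dimmest probe set ran the other way, with a mean of 8.25 in SmoA2, above the 7.94 of wild type and the 7.92 of Smo/Smo. When every probe set was fitted, that probe set gave 0.31 in SmoA2 against wild type (adjusted p = 0.0568) and 0.33 against Smo/Smo (0.0435), so that the probe sets of Pde1c disagree.

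Among 4 potassium channel genes, Kcnj6 fell in SmoA2 and the other 3 were not called. Kcnj6 levels were 10.03, 9.94 and 9.84 in wild type, 9.56, 9.35 and 9.25 in SmoA2 and 9.91, 9.99 and 10.13 in Smo/Smo. All SmoA2 arrays lay below all others, and wild type and Smo/Smo overlapped. The fall from wild type was 1.46-fold (-0.55 ± 0.09, interval -0.76 to -0.34, adjusted p = 0.0174), and SmoA2 was 1.54-fold below Smo/Smo (-0.62 ± 0.09, adjusted p = 0.0113). Smo/Smo differed from wild type by 0.071, with an interval of -0.14 to 0.28.

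The other 4 Kcnj6 probe sets were also lower on average in SmoA2 than in wild type, by -0.26, -0.41, -0.25 and -0.43. Those of -0.25 and -0.43 were the dimmest, with SmoA2 means of 6.29 and 5.98, close to the 5.57 taken as background. On those of -0.26 and -0.43 wild type and SmoA2 arrays overlapped (adjusted p = 0.569 and 0.394 with every probe set fitted). That of -0.25 was not called either (0.203). When every probe set was fitted, that of -0.41 was called as well (adjusted p = 0.0445), with -0.44 against Smo/Smo (0.0332). The call against wild type was lost without wild type replicate 1, wild type replicate 2, SmoA2 replicate 2 or SmoA2 replicate 3 (adjusted p = 0.0783, 0.0694, 0.0544 and 0.0508). Without wild type replicate 3 and SmoA2 replicate 3 together the difference was -0.53 (0.0775). The call against Smo/Smo was lost without Smo/Smo replicate 2 or 3 (0.0518 in each).

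**Figure D3:**
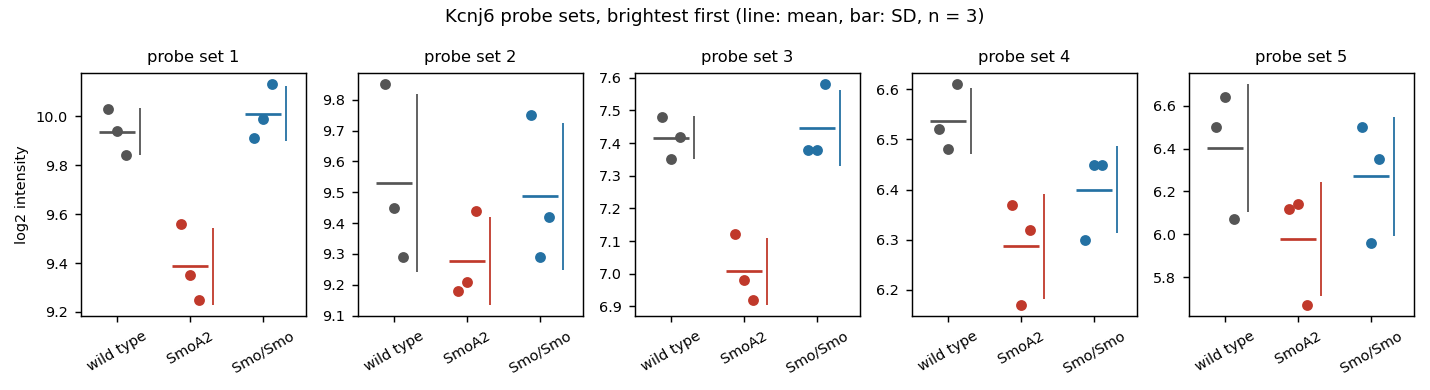
Log2 intensity of the 5 Kcnj6 probe sets (panels, brightest first) in wild type, SmoA2 and Smo/Smo; points are arrays, horizontal lines means and vertical bars SD (n = 3). The SmoA2 mean is the lowest in all 5, and the SmoA2 arrays are clear of both other groups in probe sets 1 and 3.

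Kcnc1, a fast voltage-gated channel, had levels of 10.61, 10.67 and 10.60 in wild type, 10.61, 10.72 and 10.49 in SmoA2 and 10.79, 10.77 and 10.74 in Smo/Smo. Smo/Smo was above both other groups on every array, with a difference of 0.14 ± 0.07 from wild type (adjusted p = 0.603). Kcnd2, an A-type channel of granule neuron dendrites, varied from 10.44 to 11.02 in SmoA2 and differed from wild type by 0.058 ± 0.14. Kcnk1, a leak channel, differed by -0.037 in SmoA2 and 0.055 in Smo/Smo.

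Of 3 adhesion and Rac signalling genes, 0 were called against wild type in either line, and Tiam1 was called between the lines. Tiam1 had levels of 10.65, 10.59 and 10.62 in wild type, 10.50, 10.41 and 10.47 in SmoA2 and 10.85, 10.76 and 10.87 in Smo/Smo. The 3 groups did not overlap, with SmoA2 lowest and Smo/Smo highest. SmoA2 was 1.29-fold below Smo/Smo (-0.37 ± 0.06, adjusted p = 0.0118), while neither line was called against wild type (-0.16 ± 0.06, adjusted p = 0.213, in SmoA2 and 0.21 ± 0.06, adjusted p = 0.26, in Smo/Smo). The other Tiam1 probe set gave -0.23 in SmoA2 and -0.14 in Smo/Smo, so the direction in Smo/Smo differed between probe sets, and its difference between the lines was -0.088 (adjusted p = 0.739 with every probe set fitted). With the mean of both, Tiam1 was not called (-0.23, adjusted p = 0.109). Leaving out Smo/Smo replicate 1 or 3 also ended the call (0.0535 and 0.0589).

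Fat2, a giant cadherin of granule neurons and their parallel fibres, had levels of 10.63, 10.81 and 10.49 in wild type, 11.02, 10.83 and 10.85 in SmoA2 and 10.72, 10.76 and 10.76 in Smo/Smo. SmoA2 was above both other groups, by 0.26 ± 0.09 from wild type (unadjusted p = 0.017, adjusted p = 0.202). Chn2, a Rac GTPase-activating protein that acts against Rac, had levels of 10.25, 10.32 and 10.48 in wild type, 10.10, 9.99 and 10.31 in SmoA2 and 10.31, 10.14 and 10.31 in Smo/Smo. The groups overlapped, and SmoA2 differed by -0.22 ± 0.10 (adjusted p = 0.355).

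Of the 4 release, receptor and membrane proteins, Car4 differed between the mutant lines. Its levels were 9.47, 9.46 and 9.47 in wild type, 9.25, 8.88 and 9.30 in SmoA2 and 9.79, 9.76 and 9.85 in Smo/Smo. As with Tiam1, the 3 groups did not overlap, with SmoA2 lowest and Smo/Smo highest. SmoA2 was 1.57-fold below Smo/Smo (-0.65 ± 0.10, adjusted p = 0.0122). Against wild type the differences were -0.32 ± 0.10 in SmoA2 (adjusted p = 0.169) and 0.33 ± 0.10 in Smo/Smo (0.348), neither of them called. The call between the lines was lost without Smo/Smo replicate 2 or 3 (0.0515 and 0.0584). Car4 has a single probe set and is also made by brain capillary endothelium. The summed intensity of 5 endothelial markers was 5297 to 5429 in wild type, 4571 to 4867 in SmoA2 and 5697 to 5906 in Smo/Smo. Of these markers, 3 of the 5 (Tek, Kdr and Cldn5) were lower in SmoA2 than in Smo/Smo, against 1.54% of all genes. The part of endothelial markers in the Car4 result was not tested.

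Cadps2, a factor for release of dense-core vesicles that granule neurons express, had levels of 12.43, 12.44 and 12.46 in wild type, 12.30, 12.27 and 12.21 in SmoA2 and 12.45, 12.42 and 12.50 in Smo/Smo. All SmoA2 arrays were below all others, by -0.18 ± 0.05 from wild type (adjusted p = 0.131) and -0.20 ± 0.05 from Smo/Smo (0.104). Its other probe set gave -0.27 and -0.26. Grm4, a metabotropic glutamate receptor of parallel fibre terminals, had levels of 10.40, 10.47 and 10.42 in wild type, 10.61, 10.60 and 10.64 in SmoA2 and 10.53, 10.44 and 10.57 in Smo/Smo. SmoA2 was highest on every array, by 0.19 ± 0.06 from wild type (adjusted p = 0.144). Syt12, a synaptotagmin, differed by 0.078 in SmoA2 and 0.083 in Smo/Smo.

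**Figure D4:**
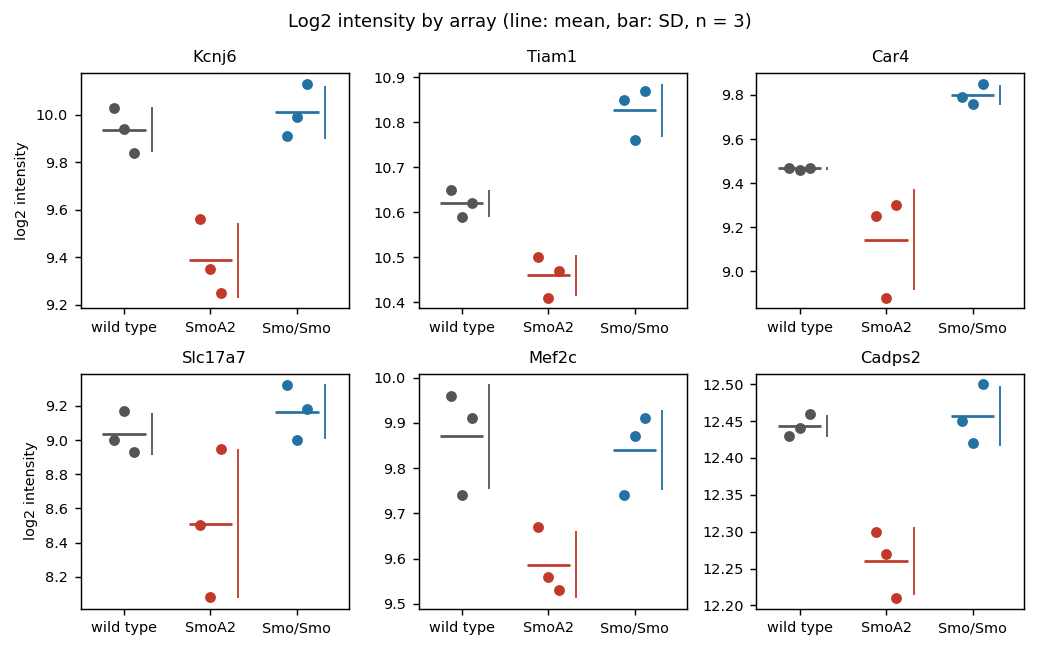
Log2 intensity of Kcnj6, Tiam1, Car4, Slc17a7, Mef2c and Cadps2 in wild type, SmoA2 and Smo/Smo; points are arrays, horizontal lines means and vertical bars SD (n = 3), and each panel has its own axis. SmoA2 arrays lie below the other groups in all panels except for the SmoA2 array of Slc17a7 at 8.95, which lies within wild type.

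Measured array by array, the median of the 34 members, each taken relative to its own mean over the 9 arrays, was 0.019 to 0.033 in wild type, -0.042 to -0.011 in SmoA2 and -0.0036 to 0.034 in Smo/Smo. All SmoA2 arrays were thus below all others, but the highest of them, at -0.011, lay close to the lowest Smo/Smo array, at -0.0036. The median of all genes ran from -0.0086 to 0.0077 over the arrays. Of the members, 19 had several probe sets. All probe sets of a gene shared the sign of the difference in 14 of the 19 for SmoA2 against wild type and in 12 for Smo/Smo against wild type.

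Other genes of the granule lineage, from a list of 35 with 29 measured, were mostly not called either. In SmoA2 against wild type 1 rose and 0 fell, in Smo/Smo 1 rose and 0 fell, and between the lines 1 was lower in SmoA2. Their medians were -0.090, -0.0010 and -0.073, against 0.0059, 0.0055 and -0.0030 over all genes, and 9, 3 and 9 of the 29 had an unadjusted p under 0.05. Over all genes 2.69%, 0.371% and 2.56% were called and 14.8%, 8.77% and 14.3% had an unadjusted p under 0.05. Grin2c, an NMDA receptor subunit gene of mature granule neurons, was the gene that rose in both lines (0.64 ± 0.08, adjusted p = 0.0045, in SmoA2 and 0.71 ± 0.08, adjusted p = 0.0102, in Smo/Smo). The Smo/Smo call did not hold when wild type replicate 1, wild type replicate 2 or Smo/Smo replicate 2 was left out (0.0524 to 0.0697), nor when its probe sets were averaged (0.43, adjusted p = 0.0745). Cntn2, an adhesion molecule of newly postmitotic granule neurons, was lower in SmoA2 than in Smo/Smo (-0.60 ± 0.11, adjusted p = 0.0294), a call lost in 8 of 9 fits that left out 1 array (0.0523 to 0.092).

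Precursor and Shh response genes were called in SmoA2 in larger numbers. Of 16 measured of 20 listed, 9 rose and 0 fell in SmoA2 against wild type, against 0.961% and 1.73% of all genes. In Smo/Smo against wild type 0 were called by limma and 5 had an unadjusted p under 0.05, against 0.371% and 8.77% of all genes. Between the lines, 5 stood higher in SmoA2 than in Smo/Smo, against 1.02% of all genes. Atoh1, the factor that granule neuron precursors need, rose by 0.82 ± 0.07 in SmoA2 (adjusted p = 0.000703) and Gli1, a target and effector of the pathway, by 0.50 ± 0.07 (0.00801). Without wild type replicate 3 and SmoA2 replicate 3 together, Gli1 was at 0.46 (0.0775) and no longer called. In the same SmoA2 arrays, 3 of 8 Purkinje cell markers, 3 of 6 markers of GABAergic interneurons and 6 of 8 meningeal markers fell, and 0 rose. Over all genes 1.73% fell and 0.961% rose. Of the Bergmann glia and astrocyte markers 2 of 8 fell (Gdf10 and Gjb6), and of the endothelial markers 2 of 5 (Tek and Kdr). Of the markers of cerebellar nuclei and brainstem 1 of 6 fell (Tbr1, -0.62 ± 0.12, adjusted p = 0.0244). Limma called 0 of 6 microglial markers against wild type, and 3 had an unadjusted p under 0.05, against 14.8% of all genes. P2ry12 and Aif1, 2 of the 6, were higher in SmoA2 than in Smo/Smo, against 1.02% of all genes. Summed intensity of the Purkinje markers was 25918 to 26862 in wild type, 19725 to 22183 in SmoA2 and 26026 to 26596 in Smo/Smo. That of the interneuron markers was 5707 to 6078, 4399 to 4513 and 5557 to 5847 in the same order. The glial sums were 33336 to 34634, 28778 to 30543 and 32378 to 33702, those of meninges 9207 to 9450, 6074 to 7294 and 8486 to 8926, and those of microglia 2468 to 2699, 2916 to 3476 and 2065 to 2373. SmoA2 thus lay below both other groups in the Purkinje, interneuron, glial and meningeal sums and above both in the microglial sum. Kcnj6 was low in the same group as these lists, and their part in its result was not tested. Neurod2, whose promoter drives the transgenes, differed by -0.17 ± 0.05 (adjusted p = 0.172) in SmoA2 and -0.057 ± 0.05 (0.839) in Smo/Smo, and Smo by -0.17 ± 0.11 (0.545) and -0.034 ± 0.11 (0.962). A match of the Smo probe set to either transgene was not tested.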

How the data were processed

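Total RNA of 9 mice was labelled with biotin and hybridised to 1 Affymetrix array each. The deposited intensity values came from RMA, named without a version in the submitters' processing notes, and lay on a linear scale. Genome build and annotation are not given in the sources used here. Their log2 was taken. Of 38385 probe sets, 24478 carried 1 gene symbol in the platform annotation, 65 several and 13842 none. For each of 19147 genes the probe set of highest mean log2 over the 9 arrays was used. Models of 3 group means, without covariates, were fitted across all genes in R 4.3.3 with limma 3.58.1 (lmFit, eBayes, Benjamini-Hochberg adjustment), and the script was tested on simulated data. Intervals are 95%. The members and lists were chosen with earlier results of these data known.

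Values on every array are given for the called members, then for those of smallest F-test p up to 14, and for Dcx, Rbfox3, Slc17a6 and Slc17a7. From the other lists, Atoh1, Gli1, Smo, Neurod2 and called genes could be named. Labels give each mouse a code of its own, but not its litter, and p-values measure the spread between these mice. Replicate numbers follow accession order and pair nothing. Alternatives tried were the probe set of largest SD, the mean of probe sets, all probe sets fitted at once, removal of low values, renormalization, trended and robust eBayes, array weights, fits to 2 groups, thresholds of 0.01 and 0.10, sex as a covariate, and leaving out arrays, of which leaving out 2 together was chosen after seeing the data.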

Additional observations from a re-analysis of the deposited data

Results flagged for a closer look

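The effect of SmoA2 and that of Smo/Smo against the same wild type arrays differed, by the direct test between the lines, in Kcnj6 (SmoA2 minus Smo/Smo -0.62, adjusted p = 0.0113), Tiam1 (-0.37, 0.0118) and Car4 (-0.65, 0.0122). Source and genotype cannot be told apart in this test, since the Smo/Smo mice carry animal codes of a different series. On the probe set used for each of these genes, all 3 SmoA2 arrays lay below all 3 Smo/Smo arrays. On the other Tiam1 probe set the lines overlapped, with a difference of -0.088 (adjusted p = 0.739 with every probe set fitted). They also overlapped on Kcnj6 probe sets 2, 4 and 5 in order of brightness. With 3 arrays a group, no single array was tested for standing apart from its group.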

How the results depend on the processing

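No paired analysis was possible because the labels give the mice no shared replicate numbers. The direction of the called differences of Kcnj6, Tiam1 and Car4 held under every alternative run, but their calls did not. In several alternatives the estimate could not change, so its direction there adds nothing. These include other thresholds, the filter on low values, trended and robust eBayes and fits to only the 2 groups compared. Against wild type, where 1 member was called in SmoA2, the count was 2 with the probe set of largest SD (Pde1c added), 3 with trended and robust eBayes (Mef2c and Cadps2 added), and 0 with only the 2 groups compared, at an adjusted p under 0.01, or with wild type replicate 3 and SmoA2 replicate 3 left out together. It ranged from 0 to 1 when each array was left out in turn. Between SmoA2 and Smo/Smo, where 3 members were called, the count was 1 with the mean of probe sets, 1 with only the 2 groups compared and 0 at an adjusted p under 0.01, and ranged from 0 to 4 with single arrays left out. With the mean of probe sets Kcnj6 was at -0.34 between the lines (adjusted p = 0.069). With only 2 groups fitted, the adjusted p was 0.0528 for Kcnj6 against wild type, and 0.0502 for Tiam1 and 0.0555 for Car4 between the lines. The F test, with 3 members called, gave 1 with the mean of probe sets, 0 at an adjusted p under 0.01, 0 with both arrays left out, and 1 to 3 with single arrays left out. In Smo/Smo against wild type 0 members were called under every alternative run. The median of the members in SmoA2 against wild type was -0.0735 with the probe set of largest SD, -0.0595 with array weights and -0.0752 to -0.0436 with single arrays left out. In Smo/Smo against wild type it was 0.0130 with sex as a covariate and -0.0032 to 0.0130 with single arrays left out, so its sign is not settled. Between the lines it was -0.0255 with array weights and -0.0669 to -0.0291 with single arrays left out. Adjusted p-values move with the number of genes called overall. In SmoA2 against wild type, in Smo/Smo against wild type and between the lines, 515, 71 and 490 genes were called. These became 782, 89 and 799 with a filter on low values, 764, 106 and 795 with trended and robust eBayes, 588, 162 and 603 with array weights, 235, 42 and 231 with only 2 groups, 366, 42 and 338 with sex as a covariate, and 215, 38 and 296 with both arrays left out. At an adjusted p under 0.01 and 0.10 they were 187, 19 and 142, and 875, 109 and 855. Leaving out single arrays gave 234 to 445, 21 to 65 and 170 to 467. The cause of these changes was not tested, other than that leaving out groups or arrays leaves fewer samples.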
